A study of Mus musculus with 7 samples.

Results

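The 4 mature miRNAs (microRNAs) of the miR-296 and miR-298 hairpins, which lie next to each other beside the imprinted Gnas locus of the mouse, were followed in CD8+ T cells of neonatal and adult animals. They were taken by name, mmu-miR-296-5p, mmu-miR-296-3p, mmu-miR-298-5p and mmu-miR-298-3p, and are 4 of the 1978 mature miRNAs listed, each on 1 line of the table. The locus was chosen by measured levels in these same libraries. Which contrast drew attention to it is not recorded, and it is taken here to have been age, where miR-298-5p and miR-296-3p had large log2 fold changes. The members' differences with age are therefore given as levels, fold changes and errors, with no test. Tests of the members are given for the cell subsets and the interaction, and their p-values rest on the assumption that those contrasts had no part in the choice.

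Each library held small RNA of CD8+ T cells from the spleen of gBT-I mice, whose T cells carry 1 transgenic receptor, against a herpes simplex virus peptide. The cells had been sorted into CD44hi CD122hi cells, the virtual memory (VM) cells that bear memory markers without having met antigen, and CD44lo CD122lo cells, the true naive (TN) cells. There were 2 neonatal VM, 1 neonatal TN, 2 adult VM and 2 adult TN libraries, with 1577031 to 3278451 counts each. The labels give no age in days and do not say whether replicates are different animals, so p-values refer to the spread of these libraries alone, part or all of which may be technical. All groups share the receptor transgene and the magnetic enrichment for CD8, and the 1 neonatal TN library allows no SD.

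A miRNA is cut from an RNA hairpin, and either the 5' arm (5p) or the 3' arm (3p) of the hairpin may be kept in the Argonaute complex, where bases 2 to 8, the seed, choose the messenger RNAs to be repressed. Gnas, which encodes the alpha subunit of the stimulatory G protein, sits in a cluster of imprinted transcripts, in which each parental allele expresses its own set. Nespas, a noncoding RNA of the opposite strand, comes from the paternal allele, and in the mouse miR-296 and miR-298 are known to be expressed from that allele too. MiR-296-5p is known in the mouse for repressing Nanog when embryonic stem cells differentiate, and in human endothelial cells for a part in vessel growth, while miR-298 is known in the mouse for repressing Bace1.

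The 4 mature sequences are shown because their seeds differ and because their content of G and C bears on results given further on. They are RefSeq's, on GRCm38.p6, written 5' to 3' with the seed in capitals.
miR-298-5p: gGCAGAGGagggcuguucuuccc
miR-298-3p: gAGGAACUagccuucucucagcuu
miR-296-5p: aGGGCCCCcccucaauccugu
miR-296-3p: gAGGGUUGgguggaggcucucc

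No member shared its seed with another member, and none of the other mature mouse miRNAs in the RefSeq table carried 1 of these 4 seeds. G and C together made up 65.2% of miR-298-5p, 68.2% of miR-296-3p, 66.7% of miR-296-5p and 50.0% of miR-298-3p.

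The hairpins are shown to place both arms, which stand in capitals, the 5p arm first.
Mir298: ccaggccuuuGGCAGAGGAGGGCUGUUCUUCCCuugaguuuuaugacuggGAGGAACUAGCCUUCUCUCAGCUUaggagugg
Mir296: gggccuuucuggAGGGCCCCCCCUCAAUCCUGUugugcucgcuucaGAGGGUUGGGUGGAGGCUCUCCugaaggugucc

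Both hairpins lie on the minus strand of GRCm38, Mir298 at chr2:174267504-174267585 and Mir296 at chr2:174267047-174267125, with 378 bases between them. In GENCODE M21 no other annotated gene covered them. The annotated near end of Nespas, which runs on the same strand at chr2:174281237-174295436, lay 13651 bases upstream of Mir298. Gnas starts 16734 bases away, on the plus strand.

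MiR-298-5p was by far the most abundant of the 4 and stood about an order of magnitude higher in neonatal than in adult cells. It had 2749 and 2845 CPM (counts relative to the library total, scaled by TMM factors) in the neonatal VM libraries and 3363 CPM in the neonatal TN library, against 224 and 101 CPM in adult VM and 204 and 271 CPM in adult TN. All 3 neonatal libraries lay above all 4 adult libraries. Such a separation may follow from the choice of the locus, and how many other miRNAs show it was not counted. The values rest on 5560 to 10890 counts in neonatal libraries and 293 to 634 counts in adult libraries. Among all names listed, miR-298-5p ranked 36 to 38 by level in the neonatal libraries and 100 to 132 in the adult ones.

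The fitted fold, neonatal over adult with subset held, was 15.9 for miR-298-5p (log2 fold change 3.99, SE 0.29). It was 17.2 within VM cells (4.11, SE 0.38) and 14.1 within TN cells (3.82, SE 0.41). Among the 288 tested miRNAs these were the 5th, 4th and 12th highest log2 fold changes. Mean levels were 2797 ± 67.9 CPM in neonatal VM, 3363 CPM in neonatal TN, 163 ± 86.6 CPM in adult VM and 238 ± 47.6 CPM in adult TN (SD, n = 2 where given). In bulk RNA, fewer cells with a miRNA and less of it per cell cannot be told apart.

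The other arm of that hairpin, miR-298-3p, was hardly seen. It had 2 and 8 counts in neonatal VM and 3 in neonatal TN, against 6 and 1 in adult VM and 0 and 0 in adult TN. Those counts correspond to 0.989 and 2.09 CPM in neonatal VM, 0.933 CPM in neonatal TN, 2.42 and 0.346 CPM in adult VM and 0 in adult TN, where 0 counts allow up to 1.62 and 1.28 CPM (3 counts per library). The counts overlap between ages and most lie at the limit of counting, so no fold is given.

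MiR-298-3p never exceeded 1.07% of the counts of its hairpin, in adult VM replicate 1 (95% Wilson interval 0.490 to 2.31%). In the neonatal TN library its share was 0.0277% (0.00944 to 0.0816%). All Wilson intervals and count limits given here cover counting error alone, because the reads carry no molecular identifiers and need not stand for separate molecules. At this depth the hairpin therefore gave reads of 1 arm in nearly all cases, in neonatal and adult cells alike.

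MiR-296-3p came next in the size of its difference with age. It had 95.9 and 97.2 CPM in neonatal VM and 103 CPM in neonatal TN, against 24.2 and 7.61 CPM in adult VM and 39.9 and 38.5 CPM in adult TN. The neonatal libraries lay within a narrow range above all adult ones, and adult VM replicate 2 was lowest, on 22 counts. This separation too may follow from the choice of the locus, and how many other miRNAs show it was not counted. The fitted fold was 4.36 (log2 fold change 2.13, SE 0.41), with 6.14 within VM cells (2.62, SE 0.45) and 2.62 within TN cells (1.39, SE 0.49).

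MiR-296-5p, the opposite arm of that hairpin, differed little. It had 67.2 and 53.8 CPM in neonatal VM and 71.6 CPM in neonatal TN, against 37.0 and 34.9 CPM in adult VM and 43.2 and 61.2 CPM in adult TN. The ages overlapped, since adult TN replicate 2 lay above neonatal VM replicate 2. The fitted fold was 1.55 (log2 fold change 0.63, SE 0.23), with 1.68 within VM cells (0.75, SE 0.29) and 1.37 within TN cells (0.45, SE 0.34).

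**Figure D1:**
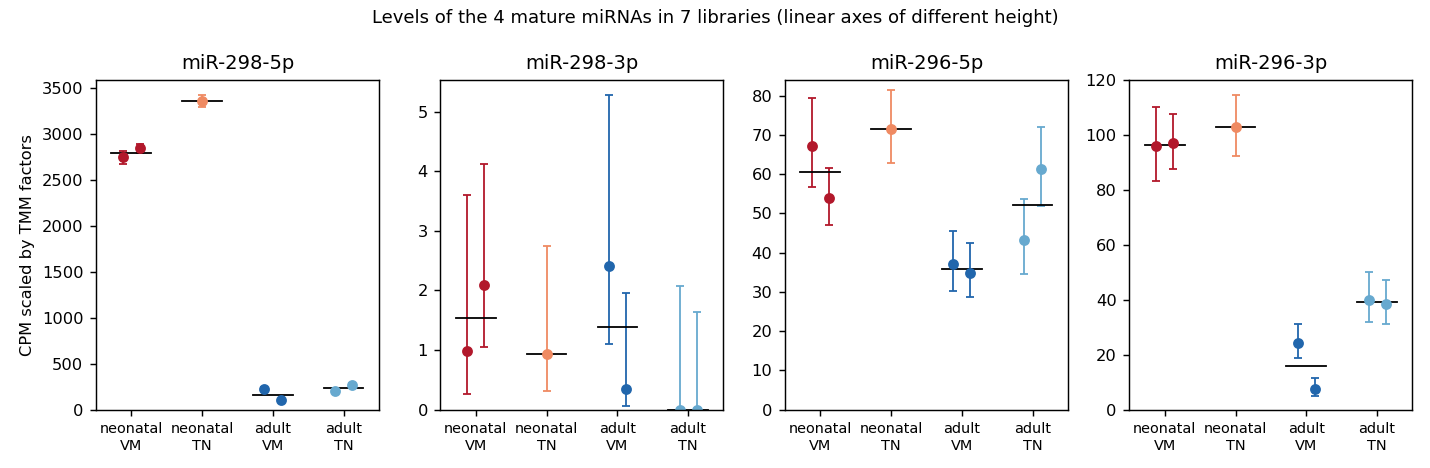
Levels of the 4 mature miRNAs, in CPM scaled by TMM factors, on linear axes of different height. Each point is a library with its 95% Wilson interval, and each black line is the mean of a group. MiR-298-5p lies at 2749 to 3363 CPM in neonatal libraries and at 101 to 271 CPM in adult libraries, while miR-298-3p stays at or below 2.42 CPM in all of them.

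Of the 4 members, 3 passed the filter on low values, at least 10 CPM in at least 2 libraries. MiR-296-5p and miR-298-5p reached that level in all 7 libraries and miR-296-3p in 6, and miR-298-3p reached it in 0 libraries and was left out of the fits. Over all 288 miRNAs tested, 26.4% were called higher in neonatal cells over both subsets, 22.9% within VM cells and 26.4% within TN cells (quasi-likelihood test of edgeR, adjusted p of 0.05 or less). The median log2 fold change of all tested miRNAs was -0.05 over both subsets. These values describe the background only, since the members are taken as chosen for their difference with age.

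Although the hairpins are neighbours on 1 strand, they did not differ with age to the same extent. The count of miR-298-5p was 40.9 and 52.9 times that of miR-296-5p in neonatal VM and 47.0 times in neonatal TN, against 6.04 and 2.90 times in adult VM and 4.725 and 4.43 times in adult TN. Such ratios are taken within a library and do not depend on scaling. Taken over miR-296-3p instead, they were 28.7 and 29.3 in neonatal VM and 32.7 in neonatal TN, against 9.27 and 13.3 in adult VM and 5.11 and 7.04 in adult TN.

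With both arms summed, the Mir298 hairpin had 16.9 and 18.9 times the counts of the Mir296 hairpin in neonatal VM and 19.3 times in neonatal TN, against 3.70 and 2.39 times in adult VM and 2.45 and 2.72 times in adult TN. Neonatal and adult libraries did not overlap in any of these 3 ratios. All 3 have counts of the Mir298 hairpin as numerator, so this separation may also follow from the choice of the locus. How many other pairs of miRNAs show it was not counted. Each read covers a whole mature miRNA, so counts compare molecules without a correction for length, but small RNA libraries capture different sequences with different efficiency. A ratio between 2 miRNAs is therefore read here only as it differs between libraries.

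Which arm of miR-296 held the more counts differed between the ages. The 3p arm held 58.8% of the counts of the hairpin (95% Wilson interval 53.4 to 64.0%) and 64.4% (60.4 to 68.2%) in the neonatal VM libraries and 59.0% (54.9 to 63.0%) in the neonatal TN library. In the adult libraries it held 39.5% (32.1 to 47.4%) and 17.9% (12.1 to 25.6%) in VM and 48.1% (40.3 to 55.9%) and 38.6% (32.6 to 45.0%) in TN. The 3p arm was thus the larger in 3 of 3 neonatal libraries and the smaller in 4 of 4 adult libraries, though in adult TN replicate 1 the interval includes an even split. Arm shares of other hairpins were not computed, so the difference is not shown to be particular to miR-296. Log2 fold changes with age were 2.13 and 0.63 for its 3p and 5p arms. In the same order they were 0.38 and -1.90 for miR-139 and 0.68 and 0.49 for miR-191. Those hairpins are examples picked under no rule, and they do not show how common such a gap between arms is.

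The mean share was 24.7 percentage points higher in neonatal than in adult libraries. The difference ranged from 18.7 to 28.7 points when each library was left out in turn. The adult libraries had 123 to 233 counts on this hairpin and the neonatal ones 330 to 578, so the adult shares are the less precise.

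**Figure D2:**
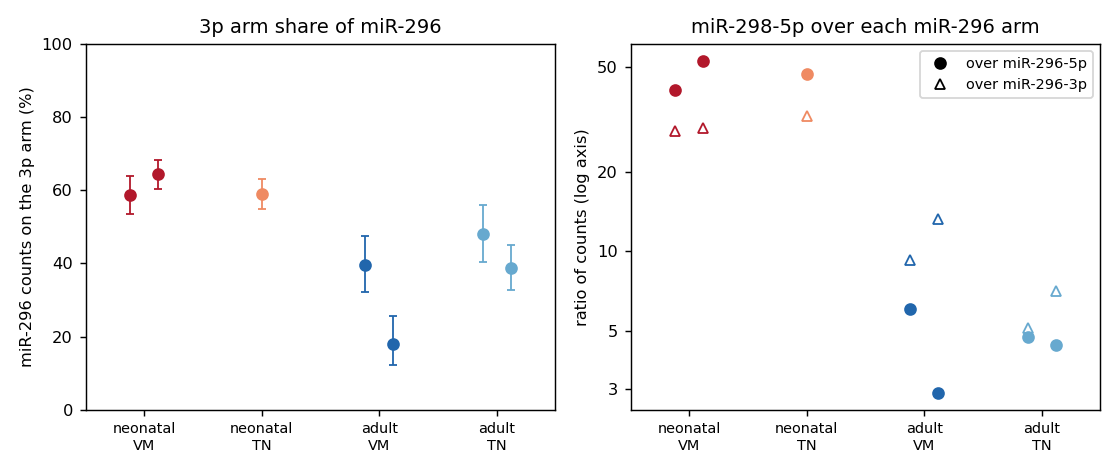
Left, share of miR-296 counts on the 3p arm, in percent, with 95% Wilson intervals, from 58.8 to 64.4% in neonatal and from 17.9 to 48.1% in adult libraries. Right, the count of miR-298-5p over that of miR-296-5p (filled circles) and of miR-296-3p (open triangles) in each library, on a log axis, with every neonatal ratio above every adult one.

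Between VM and TN cells, miR-298-5p differed far less than with age, with log2 fold changes of -0.44 by subset and 3.99 by age. The other members did not show such a contrast throughout. MiR-296-5p had -0.42 by subset and 0.63 by age. MiR-296-3p had -1.32 by subset in adult cells and 1.39 by age in TN cells. Since the locus is taken to have been chosen by age, a larger value by age may follow from the choice. Over both ages, 0 of the 3 tested members passed the edgeR test, with 0 at an unadjusted p under 0.05 and 0 by DESeq2 or limma voom, against 24.7% of all tested miRNAs. The log2 fold change over both ages, VM over TN, was -0.81 for miR-296-3p (95% interval -1.75 to 0.14, edgeR adjusted p = 0.179), -0.44 for miR-298-5p (-1.06 to 0.19, edgeR adjusted p = 0.26) and -0.42 for miR-296-5p (-0.94 to 0.10, edgeR adjusted p = 0.207). These intervals reach to a fall of about 1 on the log2 scale for miR-298-5p and miR-296-5p, so they do not show that the subsets are alike. Without the neonatal TN library, which leaves adult cells only, miR-296-3p passed at -1.33 (edgeR adjusted p = 0.045), and over all alternatives its adjusted p ran from 0.045 to 0.392.

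In adult cells miR-296-3p was 2.49-fold lower in VM than in TN cells, with 24.2 and 7.61 CPM in adult VM against 39.9 and 38.5 CPM in adult TN. The log2 fold change was -1.32 (SE 0.45), with an edgeR adjusted p of 0.0435. Over all alternatives its adjusted p ran from 6.91e-07 to 0.143. It was lower in 2 of 2 VM libraries. It was the 1 member of 3 to pass, where 15.6% of all tested miRNAs were called lower. MiR-298-5p, at 224 and 101 CPM in adult VM against 204 and 271 CPM in adult TN, did not pass (-0.55, 95% interval -1.35 to 0.25, edgeR adjusted p = 0.241), and its groups overlapped. MiR-296-5p, at 37.0 and 34.9 CPM in adult VM against 43.2 and 61.2 CPM in adult TN, did not pass either (-0.54, 95% interval -1.17 to 0.09, edgeR adjusted p = 0.154).

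The call of miR-296-3p rested on few libraries. Without adult VM replicate 2 it was -0.82 (edgeR adjusted p = 0.0534), and without adult TN replicates 1 and 2 it was -1.41 both times (edgeR adjusted p = 0.129 and 0.143). Without adult VM replicate 1 it was -2.39. Under library totals it was -1.21 (edgeR adjusted p = 0.0695) and under upper quartile factors -1.33 (edgeR adjusted p = 0.0512). Without adult VM replicate 1, miR-298-5p passed, at -1.27 (edgeR adjusted p = 6.89e-06, the lowest of a range that reached 0.547 over its alternatives). Markers of other cells that were called in this comparison were higher in adult VM. Log2 fold changes were 2.05 for the endothelial miR-126a-5p, 1.64 for the stromal miR-143-3p and 0.93 for each of the erythroid miR-486a-5p and miR-486b-5p. Those 2 had nearly equal levels in every library, so they are read as 1 signal. The erythroid miR-451a, not tested, had 2.42 and 3.11 CPM in adult VM and 2.16 and 2.14 CPM in adult TN. Other tested markers were not called, miR-126a-3p at 0.36, miR-10a-5p at 0.67 and miR-10b-5p at 0.01. The part of other cells in the result was not tested.

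In neonatal cells both VM libraries lay below the 1 TN library for all 3 members, by little beside the fitted errors, and 0 of 3 passed the edgeR test, with 0 at an unadjusted p under 0.05 and 0 by DESeq2 or limma voom, against 9.72% of all tested miRNAs. The log2 fold change was -0.27 for miR-298-5p (95% interval -1.21 to 0.68), -0.25 for miR-296-5p (-0.99 to 0.50) and -0.09 for miR-296-3p (-1.20 to 1.01). The sign of all 3 turned under upper quartile factors, so no direction is given.

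Whether the difference with age was itself different in VM and in TN cells was tested as an interaction, and 0 of 3 members passed the edgeR test, with 0 at an unadjusted p under 0.05 and 0 by DESeq2 or limma voom, against 7.99% of all tested miRNAs. The difference of log2 fold changes was 1.23 for miR-296-3p (95% interval -0.29 to 2.74, edgeR adjusted p = 0.304), 0.29 for miR-298-5p (-0.96 to 1.53, edgeR adjusted p = 0.841) and 0.29 for miR-296-5p (-0.69 to 1.28, edgeR adjusted p = 0.786). Without adult VM replicate 1 it was 2.29 for miR-296-3p (edgeR adjusted p = 4.48e-04) and 0.9997 for miR-298-5p (edgeR adjusted p = 0.0167). Without adult VM replicate 2 it was 0.70 for miR-296-3p and -0.09 for miR-298-5p. Over all alternatives the edgeR, DESeq2 or voom adjusted p ran from 4.48e-04 to 0.48 for miR-296-3p and from 0.0167 to 0.997 for miR-298-5p.

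The subsets were also compared in the shares within the hairpins. In adult cells the 3p arm of miR-296 held 28.7 ± 15.3% in VM and 43.3 ± 6.66% in TN (SD, n = 2 each; exact permutation test, two-sided, p = 0.667). The ratio of miR-298-5p to miR-296-5p was 4.47 ± 2.22 in adult VM and 4.58 ± 0.206 in adult TN (n = 2 each; exact permutation test, two-sided, p = 1). With 2 libraries against 2 the smallest p this test allows is 0.333, so neither comparison could have passed.

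**Figure D3:**
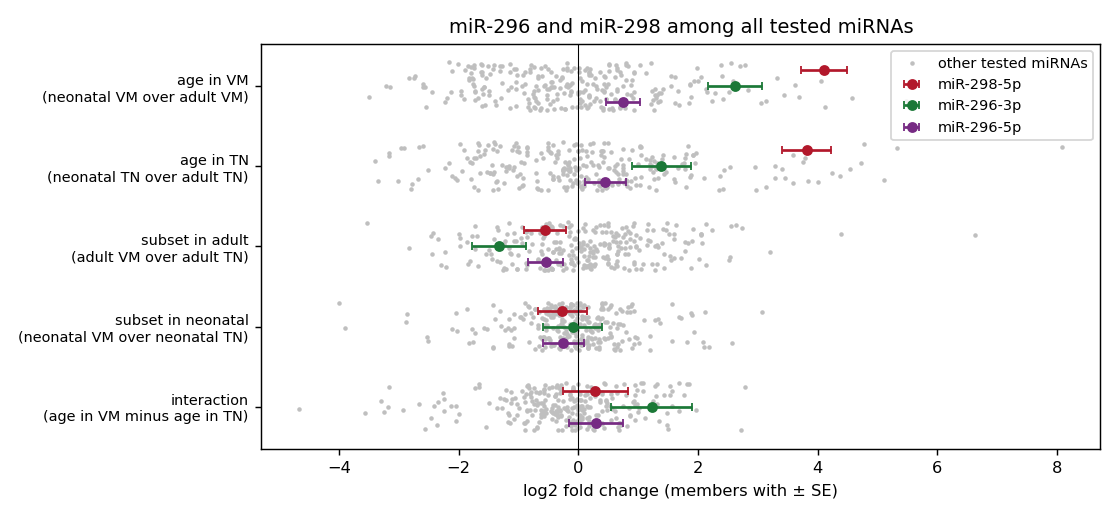
Log2 fold changes of miR-298-5p, miR-296-3p and miR-296-5p with their SE, and of the other tested miRNAs as grey points, for age within VM and within TN cells, subset within adult and within neonatal cells, and the interaction. MiR-298-5p stands at 4.11 and 3.82 for age, and all 3 lie between -1.32 and -0.09 for the 2 subset comparisons.

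Adult VM replicate 2 stood apart from replicate 1 in 2 of the 3 tested members. On the scale of log2(CPM + 1), replicate 2 minus replicate 1 was -1.14 for miR-298-5p and -1.55 for miR-296-3p, the 23rd and 10th widest gaps among 288 tested miRNAs. For miR-296-5p it was -0.08, the 256th. In neonatal VM the same gap was 0.05 for miR-298-5p and 0.02 for miR-296-3p, and in adult TN it was 0.41 and -0.05. The median size of the gap over all tested miRNAs was 0.20 in neonatal VM, 0.33 in adult VM and 0.25 in adult TN. The difference of miR-298-5p with age in VM cells was 4.78 on the log2 scale without adult VM replicate 1 and 3.70 without adult VM replicate 2, and that of miR-296-3p was 3.65 and 2.05.

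Median differences of GC-rich miRNAs were set beside these values. Sequences were at hand for 236 of the 288 tested miRNAs (81.9%). The 35 of them outside the members with at least 60% G and C had a median log2 fold change with age of 0.39, against -0.03 for the 198 with less. Their median in adult VM over adult TN was -0.44, against 0.26 for the others, and between adult VM replicates 2 and 1 it was -0.20, against 0.04. A gap between replicates was also seen in the other groups, where the GC-rich median was -0.11 in neonatal VM, against 0.02 for the others, and 0.21 in adult TN, against 0.08. In neonatal VM the members' gaps were 0.05 for miR-298-5p, 0.02 for miR-296-3p and -0.32 for miR-296-5p. In adult TN they were 0.41, -0.05 and 0.49, in the same order.

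Set against the median of those GC-rich miRNAs, the log2 difference with age was 3.61 for miR-298-5p, 1.74 for miR-296-3p and 0.24 for miR-296-5p. The class was wide, with log2 fold changes with age from -1.87 for miR-92b-3p to 4.63 for miR-7059-5p. All 3 members lay within that range. In adult VM over adult TN the same difference was -0.87 for miR-296-3p, -0.11 for miR-298-5p and -0.10 for miR-296-5p. The part of base composition in the results was not tested beyond these values, and this comparison was chosen after seeing the data.

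**Figure D4:**
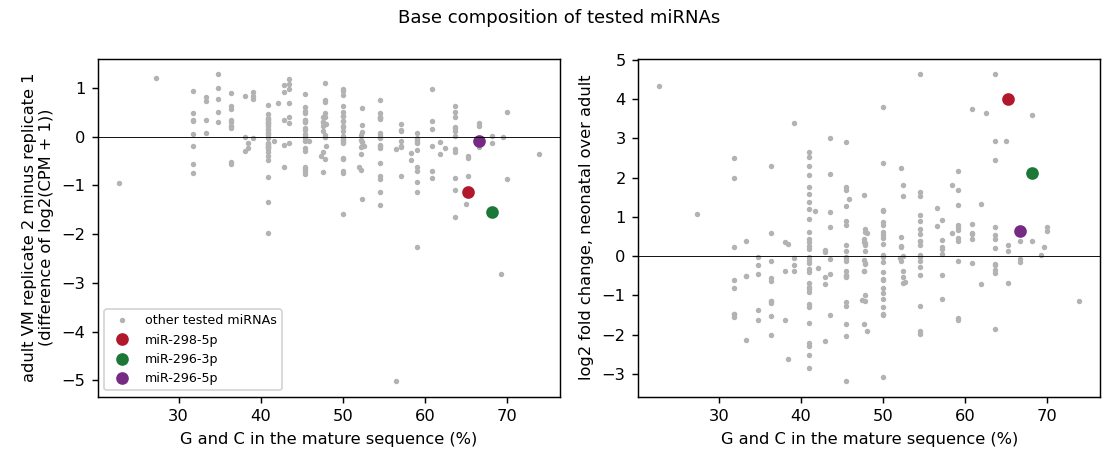
G and C in the mature sequence, in percent, against the difference between the adult VM replicates in log2(CPM + 1) (left) and against the log2 fold change of neonatal over adult cells (right), for the 236 tested miRNAs with a sequence. MiR-298-5p and miR-296-3p lie at 65.2% and 68.2% G and C, low on the left and high on the right, and miR-296-5p, at 66.7%, lies near 0 on the left.

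MiRNAs of other imprinted loci did not share the levels of miR-298-5p. Of 49 listed from the Dlk1-Dio3 locus, the large imprinted miRNA cluster on mouse chromosome 12, 15 had a count and 0 were tested, with miR-127-3p the highest at 3.96 and 4.70 CPM in neonatal VM and 11.2 CPM in neonatal TN, against 2.01 and 0 in adult VM and 0.540 and 1.71 in adult TN. The list summed to 8.10 to 14.3 CPM in neonatal libraries and 0.540 to 5.14 CPM in adult libraries. Of 4 listed from the H19 and Igf2 loci 1 had a count, miR-483-3p, at most 0.622 CPM. MiR-335-3p, from an intron of Mest, reached at most 1.04 CPM and miR-184-3p, beside Rasgrf1, at most 1.87 CPM, and neither was tested.

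The intron of Sfmbt2, a gene imprinted in the mouse placenta, held miRNAs at higher levels, summing to 217 to 544 CPM in neonatal and 668 to 1884 CPM in adult libraries. Of its 22 listed miRNAs 16 were tested, and 12 of these were lower in neonatal than in adult cells and 0 higher (edgeR adjusted p at most 0.05), where 27.4% of all tested miRNAs were called lower. The list was drawn up with earlier results of these libraries known, so the count describes it and is not independent evidence of a direction. The median of the 16 was -1.47, against -0.05 for all. The log2 fold changes of the 12 were -2.60 for miR-467d-5p, -2.34 for miR-669a-3p, -2.23 for miR-466d-3p, -2.12 for miR-467e-5p, -1.59 for miR-467a-3p, -1.56 for miR-467a-5p, -1.48 for miR-466b-3p, -1.48 for miR-467b-5p, -1.46 for miR-669a-5p, -1.21 for miR-669f-3p, -1.19 for miR-467c-5p and -0.97 for miR-669o-5p. Those of miR-466c-5p (-0.95), miR-466f-3p (-0.61), miR-669c-5p (-0.60) and miR-466g (-0.53) did not pass. They belong to the miR-466, miR-467 and miR-669 families, whose members can share reads, and how reads were divided among them is not given in the sources used here, so their single values are uncertain.

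The miRNAs whose levels followed each member most closely were sought by Pearson's r of log2(CPM + 1) over the 7 libraries, among 163 others whose mean level reached 50 CPM. The libraries fall into 3 neonatal and 4 adult ones, so a miRNA that differs steadily with age, by much or by little, can give a high r. The values are descriptions. For miR-298-5p the 5 closest were miR-5099 (0.991), miR-31-5p (0.987), miR-363-3p (0.987), miR-351-5p (0.979) and miR-130b-3p (0.978). Their log2 fold changes with age were 4.64 for miR-31-5p, a miRNA induced by T cell receptor signals, 3.645 for miR-351-5p, 1.87 for miR-5099, 1.75 for miR-130b-3p and 1.19 for miR-363-3p, beside 3.99 for miR-298-5p.

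For miR-296-3p the closest was miR-744-5p (0.9935), ahead of miR-484 (0.935), miR-27b-5p (0.921), miR-322-5p (0.917) and miR-351-5p (0.908). MiR-744-5p had 6481 CPM in neonatal VM and 7778 in neonatal TN, against 907 in adult VM and 2239 in adult TN, as group means. For miR-296-5p they were miR-322-5p (0.918), miR-484 (0.910), miR-744-5p (0.889), miR-107-3p (0.886) and miR-351-5p (0.852). MiR-351-5p, of an X-linked cluster that also holds miR-322, was named for all 3. Log2 fold changes with age were 2.44 for miR-744-5p, 2.06 for miR-322-5p, 0.79 for miR-27b-5p, 0.42 for miR-484 and 0.32 for miR-107-3p. G and C made up 63.6% of miR-744-5p and of miR-484, 62.5% of miR-351-5p, 47.8% of miR-107-3p, 45.5% of miR-27b-5p and 40.9% of miR-322-5p. Of those most like miR-298-5p, miR-31-5p had 54.5%, miR-130b-3p 45.5% and miR-363-3p 40.9%. Between adult VM replicates 2 and 1 the gap of miR-744-5p was -1.65. The gap was -0.26 for miR-484, -0.23 for miR-351-5p, -0.03 for miR-27b-5p, 0.04 for miR-107-3p and 0.21 for miR-322-5p. For miR-130b-3p, miR-363-3p and miR-31-5p it was -0.66, -0.21 and -0.19. Among the members, r was 0.914 between miR-298-5p and miR-296-3p, 0.848 between the 2 arms of miR-296 and 0.808 between miR-298-5p and miR-296-5p.

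**Figure D5:**
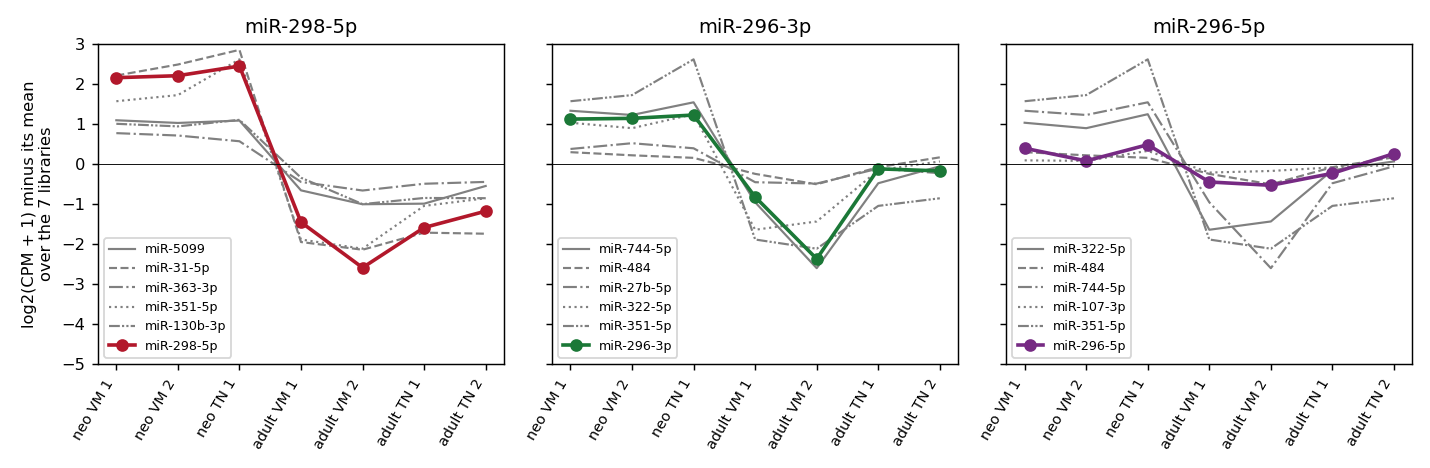
Log2(CPM + 1) minus its mean over the 7 libraries for miR-298-5p, miR-296-3p and miR-296-5p (coloured) and the 5 miRNAs most like each (grey). The lines only join the points of a miRNA. MiR-296-3p and miR-744-5p (r = 0.9935) share the low value in adult VM replicate 2, while miR-298-5p and miR-31-5p (r = 0.987) are both high in the 3 neonatal libraries.

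MiRNAs abundant in T cells and markers of other cells were followed with age. The former were listed as T cell or lymphocyte miRNAs, so they do not check the label of CD8+ T cells. The 4 T cell miRNAs miR-150-5p, miR-142a-5p, miR-142a-3p and miR-181a-5p summed to 162103 to 282625 CPM in neonatal and 338213 to 586287 CPM in adult libraries, with log2 fold changes with age of -2.01, -0.51, -0.23 and 0.69, of which the first and the last passed the edgeR test. Endothelial markers moved with the members, with miR-126a-3p and miR-126a-5p summing to 54.4 to 75.8 CPM in neonatal and 8.09 to 26.3 CPM in adult libraries (log2 fold changes 1.28 and 2.17, both passing). The 8 stromal and muscle markers summed to 59.8 to 98.3 CPM in neonatal and 15.6 to 49.8 CPM in adult libraries, with miR-143-3p (1.82) passing and miR-10b-5p (0.73) not, and miR-1a-3p, miR-206-3p and miR-214-3p at 0 in every library. The 4 erythroid markers summed to 156 to 446 CPM in neonatal and 244 to 592 CPM in adult libraries. Nearly all of that sum was miR-486a-5p (-0.71) and miR-486b-5p (-0.72), which did not pass over both subsets. At nearly equal levels, they may count 1 signal 2 times. These averages join opposite signs. Within VM cells the values were -1.73 and -1.74 and passed the edgeR test. Within TN cells, with 1 neonatal library, they were 0.63 and 0.61. MiR-451a, not tested, had 5.93 and 2.87 CPM in neonatal VM and 9.65 CPM in neonatal TN. In adult VM it had 2.42 and 3.11 CPM and in adult TN 2.16 and 2.14 CPM. The 3 myeloid and progenitor markers summed to 31.4 to 86.5 CPM in neonatal and 69.1 to 182 CPM in adult libraries, with miR-10a-5p (-1.51) passing. These marker sums are not set against the levels of the members, since small RNA libraries capture different sequences with different efficiency. The part of other cells in the differences with age was not tested.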

How the data were processed

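The authors deposited estimated counts, 1 line for each mature miRNA and its precursor, per the file headers, and some of them are fractions. The submitters' processing notes name mm10 as build. Aligner and counter are not given in the sources used here. Per the labels' protocols, libraries were made with the Illumina TruSeq small RNA kit from total RNA. Counts were summed per mature name and rounded, which left the members' 28 values as deposited, all of them whole.

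A miRNA was tested if 2 or more of the 7 libraries held 10 CPM or more, which left 288, and these were fitted with edgeR 4.0.16 (R 4.3.3), with TMM factors, the quasi-likelihood test, robust dispersions and Benjamini-Hochberg adjustment at 0.05 within each comparison. Averages over subset or age came from an additive model and the other comparisons from a model of 4 group means. Totals of 1577031 to 3278451 counts put 3 counts at 0.784 to 1.62 CPM. Intervals of fold changes are 95% and use the fitted SE.

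Tried as alternatives were factors by RLE, by library total and by upper quartile, no 5 most abundant miRNAs, no filter, filterByExpr, DESeq2 1.42.0, voom of limma 3.58.1, the replicate number as a block, dispersions that were not robust, the largest precursor value, and each library left out. A comparison with GC-rich miRNAs was added after seeing the data. Fits were first tested on simulated data. Members and lists were chosen with earlier results of these data known. Named outside the members are the 5 miRNAs most like each and the tested members of the lists, or the most abundant where none was tested. Outside that rule, miR-139 and miR-191 are named as examples of arms. MiR-92b-3p and miR-7059-5p are named as the ends of the GC-rich class. Untested markers miR-451a, miR-1a-3p, miR-206-3p and miR-214-3p are named as well. Figures were drawn with matplotlib 3.10.9.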

Additional observations from a re-analysis of the deposited data

How the results depend on the processing

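Every fold change with age of the 3 tested members stayed above 0 in every alternative run, while calls between subsets and counts over all miRNAs moved. Each value below names the alternative, and the cause was not tested. Under library totals, which shift the median of all tested miRNAs with age by 0.45 on the log2 scale, the log2 fold change of miR-296-5p with age was 1.08 over both subsets, 1.25 in VM and 0.83 in TN, and that of miR-298-5p in VM was 4.61. Under upper quartile factors miR-296-5p in TN was at 0.15. Relative to GC-rich miRNAs, miR-296-5p was at 0.24 over both subsets, 0.29 in VM and 0.061 in TN. For adult VM over adult TN, miR-296-3p was at -1.21 with library totals and -1.33 with upper quartile factors and did not pass in either. For neonatal VM over neonatal TN the sign turned with upper quartile factors for miR-296-5p (0.13), miR-296-3p (0.28) and miR-298-5p (0.11), and for miR-296-3p also with library totals (0.15) and the replicate block (0.16). The split of called miRNAs also moved with scaling. Under library totals 119 were higher and 53 lower with age over both subsets (76 and 79 with TMM), 117 and 49 in VM (66 and 89), 106 and 38 in TN (76 and 62), 59 and 27 for subset over both ages (31 and 40) and 21 and 14 in neonatal cells (9 and 19). Under upper quartile factors they were 56 and 79 for age in TN, 58 and 25 for subset over both ages, 38 and 14 in neonatal cells and, for the interaction, 18 and 12 (5 and 18). Under RLE they were 8 and 14 for the interaction and 14 and 19 in neonatal cells.

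With each library left out, an arm may hold 1 library, which is then assumed to vary like the others. The log2 fold change with age in VM ran from 2.05 to 3.65 for miR-296-3p and from 3.70 to 4.78 for miR-298-5p, and in TN from 0.10 to 0.60 for miR-296-5p. Adult VM over adult TN ran from -2.39 to -0.82 for miR-296-3p and from -1.27 to -0.20 for miR-298-5p, VM over TN at both ages from -1.33 to -0.44 for miR-296-3p, which passed without the neonatal TN library, and the interaction from 0.70 to 2.29 for miR-296-3p and from -0.091 to 0.9997 for miR-298-5p. The miRNAs called ran from 18 to 112 (71 with all libraries) for subset over both ages, 23 to 142 (113) in adult and 16 to 77 (28) in neonatal cells, 83 to 179 (138) for age in TN and 6 to 86 (23) for the interaction. Without the neonatal TN library, 3 comparisons could not be fitted.

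With all libraries, 107 were called for subset over both ages with no filter and 42 with the replicate block. In neonatal cells 52 were called with upper quartile factors, 52 with no filter and 49 with filterByExpr. For the interaction 14 were called without the 5 most abundant miRNAs, 43 with no filter, 40 with filterByExpr, 38 with DESeq2 and 15 with voom. The replicate numbers were not taken as pairs, since the correlation of deviations between groups was 0.13, 0.01 and -0.17. With the replicate block miR-296-3p in adult VM over adult TN was at -1.41 and still passed. Of the 5 miRNAs most like miR-296-5p, miR-296-3p and miR-298-5p, 4 each remained under library totals. MiR-298-3p, on 20 counts in all, is limited by depth.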
